A study of Arabidopsis thaliana with 8 samples.

Results

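Transcripts of 9 Arabidopsis genes of active DNA demethylation were followed on 8 one-colour Agilent arrays: *ROS1*, *DME*, *DML2*, *DML3*, *ROS4* (also *IDM1*), *ROS5* (also *IDM2*), *IDM3*, *ROS3* and *ZDP*. The members were chosen by locus, and every non-control probe annotated with a RefSeq transcript of one of them was used. This gave 12 of the 43603 probes and 9 of the 25383 annotated genes on the array. *ROS1*, *DME* and *IDM3* had 2 probes each and the other genes had 1. The brighter probe of a gene is called the leading probe.

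The 4 genotypes compared, with 2 arrays each, were *ros1–1 hda6–10*, *ros1–1 hda6–9*, *ros1–1* and C24 wild type. All 4 are in the C24 accession and carry the linked *RD29A::LUC* and *35S::NPTII* reporters. Both *hda6* alleles were isolated from a T-DNA-mutagenized *ros1–1* population, so each is 1 line that also carries *ros1–1*. In *hda6–10* a small deletion in the first exon shifts the reading frame of *HDA6*, which encodes an RPD3-like histone deacetylase, and in *hda6–9* a T-DNA lies just before the stop codon. Whole seedlings were raised for 12 days under a 16 h day at 21 °C, spent 1 day at 4 °C and were then pooled for RNA. No sample was left at the growth temperature, and no array held *hda6* in a background with functional *ROS1*.

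Active demethylation in plants is a form of base excision repair. A DNA glycosylase of the ROS1 family removes the methylated cytosine and cuts the strand, the 3′ phosphatase ZDP or an endonuclease cleans the broken end, and a polymerase and a ligase fill and seal the gap. Part of the ROS1 targets are opened beforehand by a histone acetyltransferase complex, in which ROS4 adds the acetyl groups and the alpha-crystallin domain proteins ROS5 and IDM3 are partners. ROS1 acts against the small RNA-directed DNA methylation pathway in vegetative tissue, and DME is best known for opening maternal alleles in the central cell of the ovule. The *ROS1* promoter is itself a target of DNA methylation, and *ROS1* transcript level is known to follow the methylation state of the genome.

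Signals are given as log2 values relative to the 75th percentile of the array, so that 0 is the 75th percentile itself and a difference of 1 is 2-fold. Each of the 12 probes stood well above background on every one of the 8 arrays, with no outlier mark. Every value below is from 2 arrays per genotype, and p-values are limma's, adjusted by the Benjamini-Hochberg method over the 35381 probes tested. The arrays of a genotype correlated at 0.9905 to 0.9925 over probes. The methods name more biological replicates per sample than the 2 arrays of each genotype analysed here, and nothing further says how they were separated, so p-values measure the spread between these arrays. *HDA6* itself read -1.76 and -1.78 in *ros1–1 hda6–10*, 0.90 and 0.84 in *ros1–1 hda6–9*, -0.17 and -0.20 in *ros1–1* and -0.31 and -0.24 in C24, which made it lower in *hda6–10* (log2 difference from *ros1–1* -1.58, adjusted p = 0.00014) and higher in *hda6–9* (1.05, adjusted p = 0.00068). Where the probe lies relative to the 2 lesions was not determined. The arrays lay on 4 slides. C24 had a slide to itself, and in comparisons with it the slide cannot be told apart from the genotype. Seed storage transcripts were far lower on *ros1–1 hda6–9* replicate 2 and C24 replicate 2 than on the other arrays: the summed signal of *CRA1*, *CRC* and *OLEO1* was 0.0608 and 0.0204 times the 75th percentile there, and 0.647 to 1.86 times it elsewhere. For part of the results that rest on those arrays, values without both are given too. Without both, some further calls did not keep an adjusted p under 0.05. Among these were *ZDP* in *hda6–9* against *ros1–1* and C24, and the second probe of *ROS1* against C24 in both alleles. In *hda6–10* against C24, *DML2* and the second probe of *IDM3* were lost likewise.

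Among the members the smallest adjusted p belonged to *DML3*, a glycosylase of the ROS1 family, which was lower in *hda6–9*. *DML3* (AT4G34060, chromosome 4) read -5.30 and -5.40 in *ros1–1 hda6–9*, against -4.20 and -4.03 in *ros1–1* and -4.31 and -4.21 in C24. In *ros1–1 hda6–10* it read -4.15 and -4.13. Both *hda6–9* arrays lay below every other array, and the arrays of *hda6–10* lay within the range of *ros1–1*.

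*DML3* was 57.6% lower in *ros1–1 hda6–9* than in *ros1–1*, a log2 difference of -1.24 ± 0.09 (SE; 95% confidence interval -1.46 to -1.01; adjusted p = 0.0010). The fold between the alleles was 2.31, higher in *ros1–1 hda6–10* than in *ros1–1 hda6–9* (log2 difference 1.21, interval 0.98 to 1.44, adjusted p = 0.015). Against C24, *ros1–1 hda6–9* was 53.0% lower (log2 difference -1.09, adjusted p = 0.0018). No difference was detected between *ros1–1 hda6–10* and *ros1–1* (log2 difference -0.03, interval -0.26 to 0.20) or between *ros1–1* and C24 (0.15, interval -0.08 to 0.37).

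The fall of *DML3* in *hda6–9* against *ros1–1* passed the test under each of the 20 alternatives tried, with log2 differences from -1.39 to -0.77. On the slide that held an array of both genotypes it was -1.26. The smallest value, -0.77 (adjusted p = 0.016), came with the normexp background correction and its added offset. The difference between the alleles was not past the threshold when *hda6–10* replicate 1 (1.22, adjusted p = 0.067), *hda6–9* replicate 1 (1.26, adjusted p = 0.086) or *hda6–9* replicate 2 (1.15, adjusted p = 0.069) was left out. Without *hda6–9* replicate 2 and C24 replicate 2, *hda6–9* against C24 was -0.99 (adjusted p = 0.068).

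**Figure D1:**
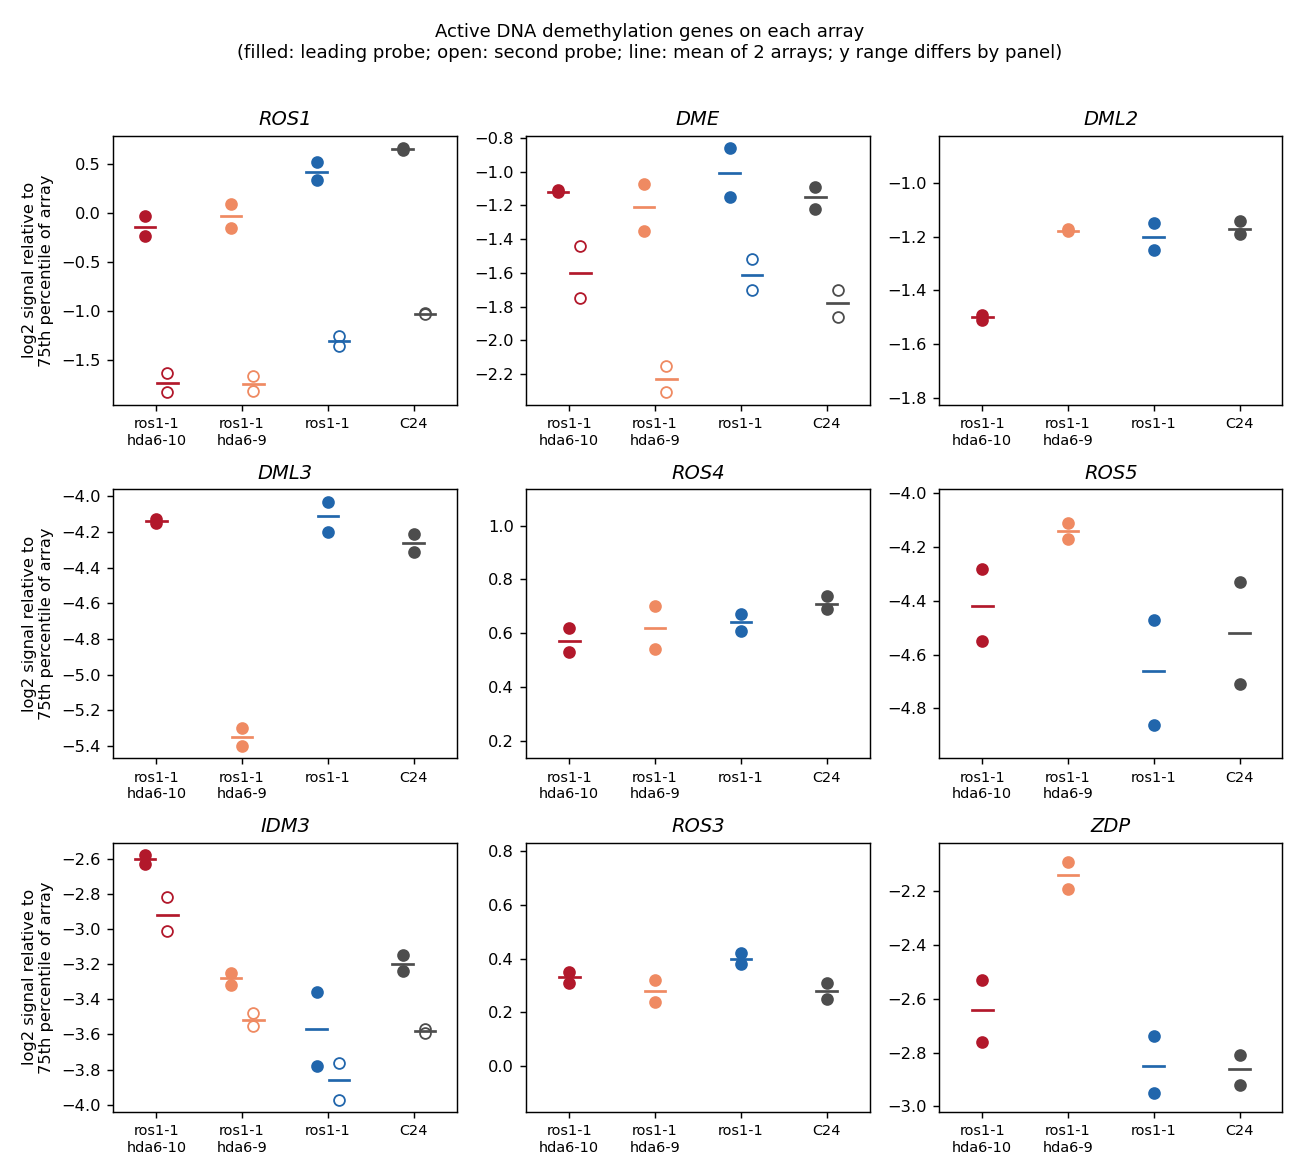
Signal of the 9 demethylation genes on each array (y axis: log2 signal relative to the 75th percentile of the array, with a range of its own in each panel; x axis: genotype; points: arrays; line: mean of 2 arrays). *DML3* is low in *ros1–1 hda6–9* alone, *IDM3* is highest in *ros1–1 hda6–10*, and both probes of *ROS1* are lower in both *hda6* genotypes than in *ros1–1* and C24.

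*ROS1*, the main glycosylase of vegetative tissue, was lower in both alleles than in C24. Its leading probe (AT2G36490, chromosome 2) read -0.24 and -0.03 in *ros1–1 hda6–10*, 0.09 and -0.15 in *ros1–1 hda6–9*, 0.33 and 0.52 in *ros1–1* and 0.66 and 0.64 in C24. The second probe read -1.83 and -1.63 in *ros1–1 hda6–10*, -1.66 and -1.81 in *ros1–1 hda6–9*, -1.25 and -1.36 in *ros1–1* and -1.02 and -1.03 in C24. On both probes the 4 *hda6* arrays lay below the 4 others, and the *ros1–1* arrays lay below those of C24. The probes correlated at 0.960 over the 8 arrays.

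Against *ros1–1*, the leading *ROS1* probe was 32.1% lower in *hda6–10* (log2 difference -0.56 ± 0.13 SE, interval -0.87 to -0.25, adjusted p = 0.043) and 26.8% lower in *hda6–9* (-0.45, interval -0.76 to -0.14, adjusted p = 0.074). On the second probe the differences were -0.42 in *hda6–10* (adjusted p = 0.058) and -0.43 in *hda6–9* (adjusted p = 0.054). Only 1 of these 4 tests passed the threshold. Within the slide that held both *hda6–10* arrays, *hda6–10* minus *ros1–1* was -0.47 on the leading and -0.48 on the second probe, and within the slide shared by *hda6–9* and *ros1–1* the difference was -0.43 and -0.29. With the slide as a block, the call in *hda6–10* was lost (adjusted p = 0.17).

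Against C24 both probes passed in both alleles. The leading probe was 41.8% lower in *ros1–1 hda6–10* (log2 difference -0.78, interval -1.09 to -0.47, adjusted p = 0.020) and 37.3% lower in *ros1–1 hda6–9* (-0.67, interval -0.98 to -0.36, adjusted p = 0.026). The second probe gave -0.70 (adjusted p = 0.016) and -0.71 (adjusted p = 0.013). The step between *ros1–1* and C24 was smaller, -0.22 (interval -0.53 to 0.09, adjusted p = 0.58) and -0.28 (interval -0.54 to -0.02, adjusted p = 0.39), and passed on neither probe. The order of the genotype means was therefore C24, *ros1–1* and then the 2 *hda6* genotypes, in which the neighbours C24 and *ros1–1* were not told apart by the test, nor were the 2 alleles (-0.11, interval -0.42 to 0.20, on the leading probe and 0.01, interval -0.25 to 0.27, on the second). The sources do not say where the *ros1–1* lesion lies in the transcript, so these probes check neither the presence nor the absence of the mutation.

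For *hda6–10* against *ros1–1* the leading probe ranged from -0.66 to -0.46 over 20 alternatives and passed under 7 of them. It did not pass when any single array was left out (adjusted p = 0.052 to 0.18, the highest without *hda6–10* replicate 1 or *ros1–1* replicate 2). Against C24 the leading probe passed under 14 of 19 alternatives in *hda6–10* and 12 of 19 in *hda6–9*. Single arrays ended these calls: for *hda6–10* its replicate 1 (-0.68 without it, adjusted p = 0.098), and in both alleles C24 replicate 1 (-0.77, adjusted p = 0.099, and -0.66, adjusted p = 0.13) and C24 replicate 2 (-0.79, adjusted p = 0.096, and -0.68, adjusted p = 0.087), and for *hda6–9* its replicate 1 (-0.79, adjusted p = 0.05) and replicate 2 (-0.56, adjusted p = 0.10). The second probe was lost likewise without *hda6–10* replicate 1, *hda6–9* replicate 2 or either C24 array (adjusted p = 0.058 to 0.085). Without both arrays of low seed transcripts, the leading probe was -0.79 in *hda6–10* (adjusted p = 0.13) and -0.57 in *hda6–9* (adjusted p = 0.21) against C24.

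*DME* and *DML2*, the remaining glycosylases, each passed in 1 comparison with a difference under 2-fold. The leading probe of *DME* (AT5G04560, chromosome 5) read -1.12 and -1.11 in *ros1–1 hda6–10*, -1.35 and -1.07 in *ros1–1 hda6–9*, -0.86 and -1.15 in *ros1–1* and -1.09 and -1.22 in C24, and passed no test. Its second probe read -1.44 and -1.75 in *ros1–1 hda6–10*, -2.31 and -2.15 in *ros1–1 hda6–9*, -1.70 and -1.52 in *ros1–1* and -1.70 and -1.86 in C24. On the second probe alone, the 2 *hda6–9* arrays lay below all others.

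That probe was 35.1% lower in *ros1–1 hda6–9* than in *ros1–1* (log2 difference -0.62, interval -0.97 to -0.28, adjusted p = 0.042), where the leading probe gave -0.21 (interval -0.56 to 0.15, adjusted p = 0.38). The 2 probes of *DME* thus disagreed, and they correlated at only 0.436 over the 8 arrays. The call on the second probe was lost with the slide as a block (-0.79, adjusted p = 0.20) and when any *hda6–9*, *ros1–1* or C24 array was left out (-0.53 to -0.71, adjusted p = 0.068 to 0.17). *DML2* (AT3G10010, chromosome 3) read -1.51 and -1.49 in *ros1–1 hda6–10*, -1.17 and -1.18 in *ros1–1 hda6–9*, -1.25 and -1.15 in *ros1–1* and -1.14 and -1.19 in C24. Both *hda6–10* arrays were the lowest, by 19.2% against *ros1–1* (log2 difference -0.31, adjusted p = 0.052) and by 20.7% against C24 (-0.33, adjusted p = 0.049). The second of these passed under 5 of 19 alternatives only, and with any single array left out it did not (adjusted p = 0.076 to 0.21).

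In the histone acetyltransferase complex, *IDM3* was higher in *hda6–10*, and *ROS4* and *ROS5* passed no test. *IDM3* (AT1G20870, chromosome 1) read -2.58 and -2.63 on its leading probe in *ros1–1 hda6–10*, against -3.32 and -3.25 in *ros1–1 hda6–9*, -3.78 and -3.36 in *ros1–1* and -3.15 and -3.24 in C24. The second probe read -2.82 and -3.01 in *ros1–1 hda6–10*, -3.55 and -3.48 in *ros1–1 hda6–9*, -3.97 and -3.76 in *ros1–1* and -3.57 and -3.59 in C24. On both probes the 2 *hda6–10* arrays were the highest and the 2 *ros1–1* arrays the lowest of the 8, and the probes correlated at 0.974.

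*IDM3* was 1.95-fold higher in *ros1–1 hda6–10* than in *ros1–1* on the leading probe (log2 difference 0.96 ± 0.14 SE, interval 0.61 to 1.32, adjusted p = 0.012) and 1.93-fold higher on the second (0.95 ± 0.11 SE, interval 0.68 to 1.21, adjusted p = 0.0049). Both lay just under 2-fold. In *ros1–1 hda6–9* the differences from *ros1–1* were 0.29 (adjusted p = 0.24) and 0.35 (adjusted p = 0.091). The direct test between the alleles gave 0.68 (interval 0.32 to 1.03, adjusted p = 0.064) and 0.60 (interval 0.33 to 0.87, adjusted p = 0.046), higher in *hda6–10* than in *hda6–9*.

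Part of the contrast with *ros1–1* was that *ros1–1* lay below C24, by -0.37 (adjusted p = 0.41) and -0.28 (adjusted p = 0.40), which did not pass. Against C24 the rise in *hda6–10* was 0.59 (adjusted p = 0.063) and 0.66 (adjusted p = 0.021). The second of these passed under 13 of 19 alternatives only. Within the slide that held *hda6–10* and *ros1–1* the difference was 1.17 on the leading and 1.06 on the second probe. Against *ros1–1*, the second probe passed under each of the 20 alternatives (0.80 to 1.06) and the leading probe under 16 of 20, failing among the arrays left out without *hda6–10* replicate 1 (0.94, adjusted p = 0.070) and without *hda6–10* replicate 2 (0.99, adjusted p = 0.051). The difference between the alleles on the second probe passed under 6 of 20, and with any single array left out it did not (0.51 to 0.69, adjusted p = 0.062 to 0.20).

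*ROS4* (AT3G14980, chromosome 3), the acetyltransferase itself, read 0.53 and 0.62 in *ros1–1 hda6–10*, 0.70 and 0.54 in *ros1–1 hda6–9*, 0.61 and 0.67 in *ros1–1* and 0.74 and 0.69 in C24. Its differences in the 6 comparisons ran from -0.14 to -0.02, and the widest interval end was -0.35, so that a change of 2-fold lay outside all 6 intervals. *ROS5* (AT1G54840, chromosome 1) read -4.55 and -4.28 in *ros1–1 hda6–10*, -4.11 and -4.17 in *ros1–1 hda6–9*, -4.86 and -4.47 in *ros1–1* and -4.33 and -4.71 in C24. Its standard error, 0.19, was the largest of the 12 probes, and its highest difference, 0.53 in *hda6–9* against *ros1–1* (interval 0.05 to 1.00), had an adjusted p of 0.13.

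*ROS3* and *ZDP* act with the glycosylase. *ROS3* (AT5G58130, chromosome 5), an RNA-binding protein needed for demethylation at a part of the ROS1 targets, read 0.31 and 0.35 in *ros1–1 hda6–10*, 0.32 and 0.24 in *ros1–1 hda6–9*, 0.38 and 0.42 in *ros1–1* and 0.31 and 0.25 in C24. Its differences ran from -0.12 to 0.12 and none passed. *ZDP* (AT3G14890, chromosome 3) read -2.53 and -2.76 in *ros1–1 hda6–10*, -2.19 and -2.09 in *ros1–1 hda6–9*, -2.74 and -2.95 in *ros1–1* and -2.92 and -2.81 in C24. Both *hda6–9* arrays were above the 6 others.

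*ZDP* was 1.63-fold higher in *ros1–1 hda6–9* than in *ros1–1* (log2 difference 0.71 ± 0.12 SE, interval 0.41 to 1.00, adjusted p = 0.019) and 1.65-fold higher than in C24 (0.72, adjusted p = 0.017). In *ros1–1 hda6–10* it differed from *ros1–1* by 0.20 (interval -0.09 to 0.50, adjusted p = 0.35), and the test between the alleles gave -0.50, lower in *hda6–10* than in *hda6–9* (adjusted p = 0.079). The difference from *ros1–1* was 0.76 within the shared slide. With the slide as a block its adjusted p was 0.16. It was not past the threshold without *hda6–9* replicate 1 (0.75, adjusted p = 0.067), *hda6–9* replicate 2 (0.66, adjusted p = 0.094) or *ros1–1* replicate 2 (0.60, adjusted p = 0.092), and against C24 not without either *hda6–9* array or either C24 array (0.67 to 0.77, adjusted p = 0.058 to 0.11). Markers of dividing cells moved with it. The 3 genes *CYCB1-1*, *CDKB2-1* and *CDKB1-1*, all well above background on every array, were 0.68 to 0.77 higher in *hda6–9* than in *ros1–1*, none past the threshold. Their summed signal was 0.811 and 0.859 times the 75th percentile in *ros1–1 hda6–9*, 0.442 and 0.659 in *ros1–1 hda6–10*, 0.478 and 0.537 in *ros1–1* and 0.421 and 0.520 in C24. Their part in the result for *ZDP* was not tested.

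**Figure D2:**
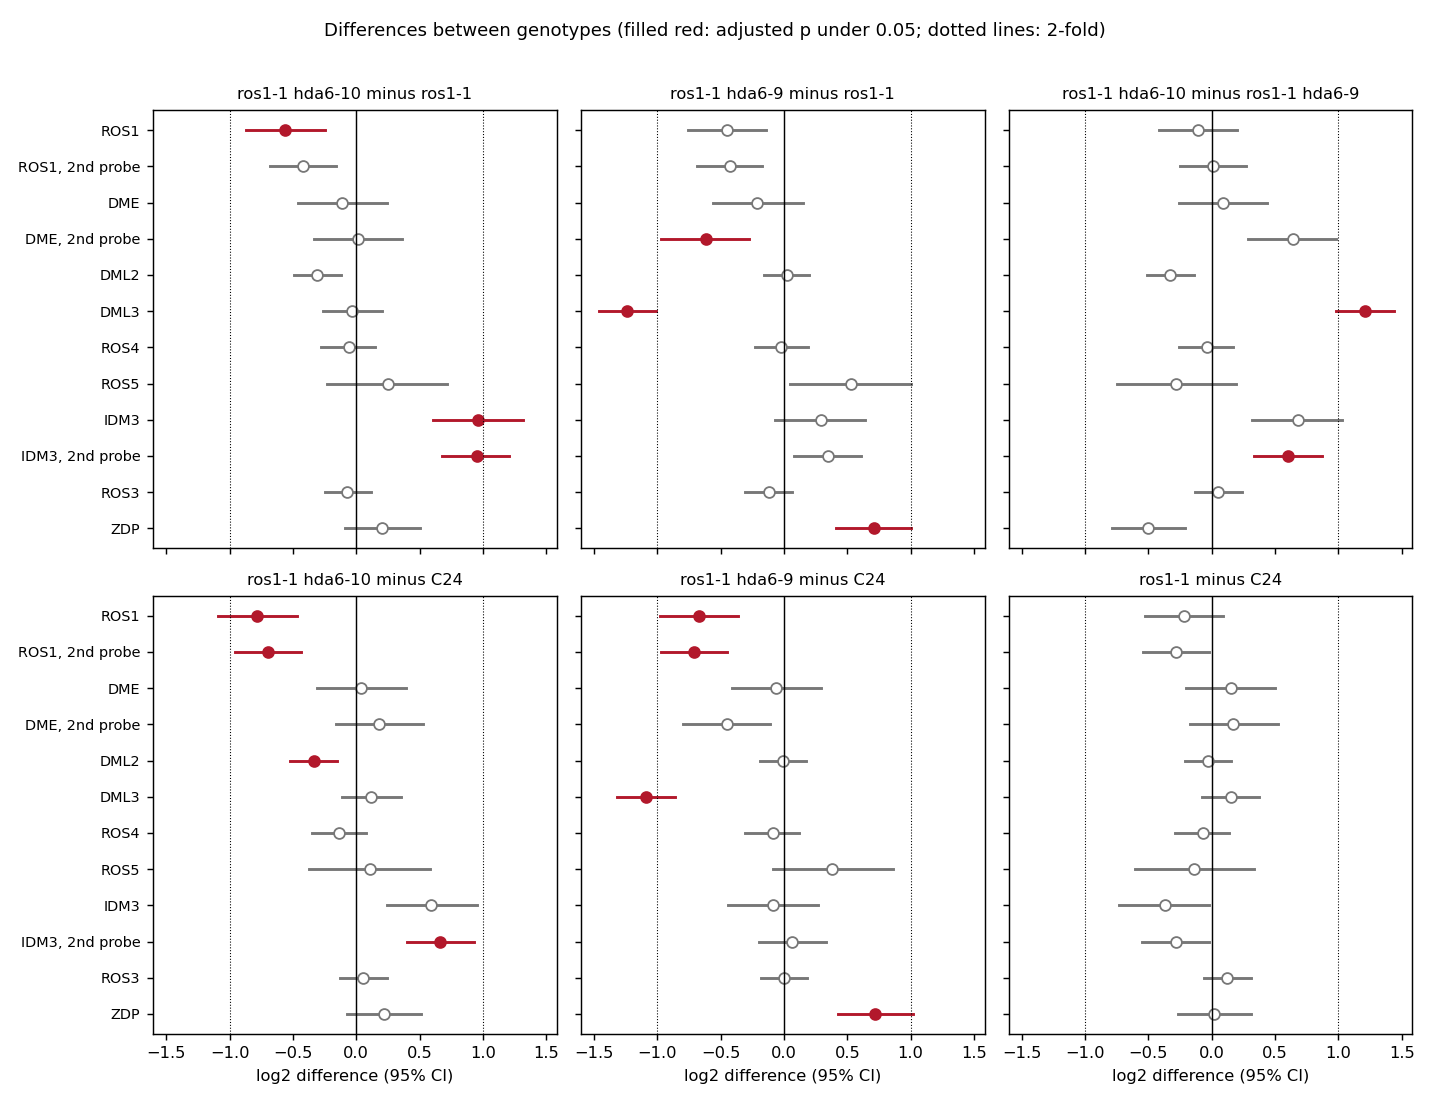
Differences between genotypes for the 12 probes of the 9 genes (x axis: log2 difference with its 95% confidence interval; y axis: probe, a gene's leading probe first; filled red: adjusted p under 0.05). *DML3* passes in the 3 comparisons with *ros1–1 hda6–9*, and both probes of *IDM3* pass in *ros1–1 hda6–10* against *ros1–1*. Further points of *ROS1*, *DME*, *DML2*, *IDM3* and *ZDP* pass with differences under 2-fold. No probe passes between *ros1–1* and C24.

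At an adjusted p under 0.05 and a change over 2-fold, none of the 12 was called in *hda6–10* against *ros1–1*, where 6.36% of all tested probes were, and 1 (*DML3*, lower) was called in *hda6–9* against *ros1–1*, where 5.67% were. Between the alleles 1 was called (*DML3*), against 1.97% of all tested probes. Against C24 the count was 0 in *hda6–10* (4.73% of all), 1 in *hda6–9* (6.05%) and 0 in *ros1–1* (0.43%). By adjusted p alone, 3 of the 12 passed in *hda6–10* against *ros1–1* (both of *IDM3* and 1 of *ROS1*, where 12% of all tested probes passed) and 3 in *hda6–9* against *ros1–1* (*DML3*, *ZDP* and 1 of *DME*, where 12.2% passed). The corresponding counts were 2 between the alleles (3.82% of all), 4 in *hda6–10* against C24 (8.95%), 4 in *hda6–9* against C24 (13.3%) and 0 in *ros1–1* against C24 (0.469%). The median log2 difference of the 12 probes was -0.05 in *hda6–10* and -0.07 in *hda6–9* against *ros1–1*, beside 0.02 in both comparisons over all probes. The comparisons with *ros1–1* share the same *ros1–1* arrays.

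For the steps that follow the cut, a list of 11 further DNA repair genes was read. Not all of them act there: *FPG1* and *OGG1* are themselves glycosylases. *POLL*, the DNA polymerase lambda that can fill short gaps, was higher in both alleles. It read -4.49 and -4.82 in *ros1–1 hda6–10* and -4.43 and -4.48 in *ros1–1 hda6–9*, against -6.56 and -6.45 in *ros1–1* and -6.47 and -6.21 in C24. The 4 *hda6* arrays lay above the 4 others.

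*POLL* was 3.61-fold higher in *hda6–10* than in *ros1–1* (log2 difference 1.85, interval 1.49 to 2.21, adjusted p = 0.0013) and 4.14-fold higher in *hda6–9* (2.05, interval 1.69 to 2.41, adjusted p = 0.00082). Against C24 it was 3.22-fold higher in *hda6–10* and 3.69-fold higher in *hda6–9*. With the slide as a block the rise in *hda6–9* was 2.02 (adjusted p = 0.058). With the normexp correction the rise was 1.17 in *hda6–10* and 1.03 in *hda6–9*, both past the threshold. No other gene of the 11 was called at 2-fold on its leading probe. Of all tested probes, 0.43% to 6.36% were called in the 6 comparisons. The second probe of *APE2*, a further endonuclease of the list, was called lower in *hda6–9* than in *ros1–1* (-1.35, adjusted p = 0.050), where its leading probe gave -1.25 (adjusted p = 0.064). By p alone, and named here after their values were seen, the abasic site endonuclease *APE1L* was higher in both alleles than in *ros1–1* (0.51, adjusted p = 0.047 in *hda6–10*, and 0.69, adjusted p = 0.020 in *hda6–9*), and the repair scaffold *XRCC1* was lower in *hda6–10* (-0.58, adjusted p = 0.031). The median over the 11 genes was 0.00 in *hda6–10* and 0.14 in *hda6–9* against *ros1–1*. The remaining genes of the list, among them the ligases *LIG1*, *LIG4* and *LIG6*, passed in neither allele against *ros1–1* on their leading probes.

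The chromatin partners of the glycosylases, 11 genes that include the methyl-DNA reader *MBD7* and the histone exchange complex that deposits H2A.Z, had no call at 2-fold in any comparison. At that threshold 0.43% to 6.36% of all tested probes were called. *MBD7*, which binds methylated DNA and recruits the IDM proteins, read 0.98 and 0.93 in *ros1–1 hda6–10* and 0.99 and 1.04 in *ros1–1 hda6–9*, against 0.58 and 0.59 in *ros1–1* and 0.69 and 0.66 in C24. It was 0.37 higher in *hda6–10* (adjusted p = 0.025) and 0.43 higher in *hda6–9* (adjusted p = 0.017) than in *ros1–1*. No other gene of the 11 passed by p alone in these comparisons, where 12% and 12.2% of all tested probes did. Against C24, *MBD7* gave 0.28 in *hda6–10* (adjusted p = 0.065) and 0.34 in *hda6–9* (adjusted p = 0.033). Its second probe passed against C24 in neither allele (adjusted p = 0.10 and 0.053). *ARP6* passed in *hda6–9* against C24 (0.36, adjusted p = 0.040). The 6 genes of cytosolic iron-sulfur cluster assembly, which equips ROS1-type glycosylases with their cofactor, differed by -0.18 to 0.15 over the 6 comparisons, and none passed. By p alone, 0.469% to 13.3% of all tested probes passed in these comparisons.

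Of 24 genes of the opposing process, which set or maintain DNA methylation, 4 passed in *hda6–10* and 8 in *hda6–9* by p alone against *ros1–1* on their leading probes, all of them higher, where 8.61% and 8.73% of all tested probes passed as higher. The medians of the 24 were 0.26 and 0.38, beside 0.02 over all probes. *CLSY1*, a chromatin remodeller that brings RNA polymerase IV to its loci, was the only one called at 2-fold. Against *ros1–1*, 6.36% of all tested probes were called in *hda6–10* and 5.67% in *hda6–9*. It read -1.21 and -1.25 in *ros1–1 hda6–10* and -0.97 and -1.07 in *ros1–1 hda6–9*, against -2.30 and -2.52 in *ros1–1* and -2.49 and -2.36 in C24.

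*CLSY1* was 2.27-fold higher in *hda6–10* (log2 difference 1.18, adjusted p = 0.0019) and 2.62-fold higher in *hda6–9* (1.39, adjusted p = 0.00095) than in *ros1–1*, with the 4 *hda6* arrays above the 4 others, and against C24 it was 2.29-fold higher in *hda6–10* and 2.65-fold higher in *hda6–9*. The others were named after their values were seen. *DCL3*, which cuts the precursors of the small interfering RNAs, passed in both alleles (0.52, adjusted p = 0.013 in *hda6–10*, and 0.38, adjusted p = 0.037 in *hda6–9*). *RDM1* (0.45) and *SUVH9* (0.56) passed in *hda6–10*. The CG maintenance methyltransferase *MET1* (0.71, adjusted p = 0.026), the RNA polymerase subunits *NRPE1* (0.56) and *NRPD2* (0.41), the Argonaute proteins *AGO4* (0.43) and *AGO6* (0.60) and *IDN2* (0.55) passed in *hda6–9*. The markers of dividing cells were higher in *hda6–9* too, and their part in these counts was not tested. None of the 24 passed the direct test between the alleles, and none passed between *ros1–1* and C24.

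**Figure D3:**
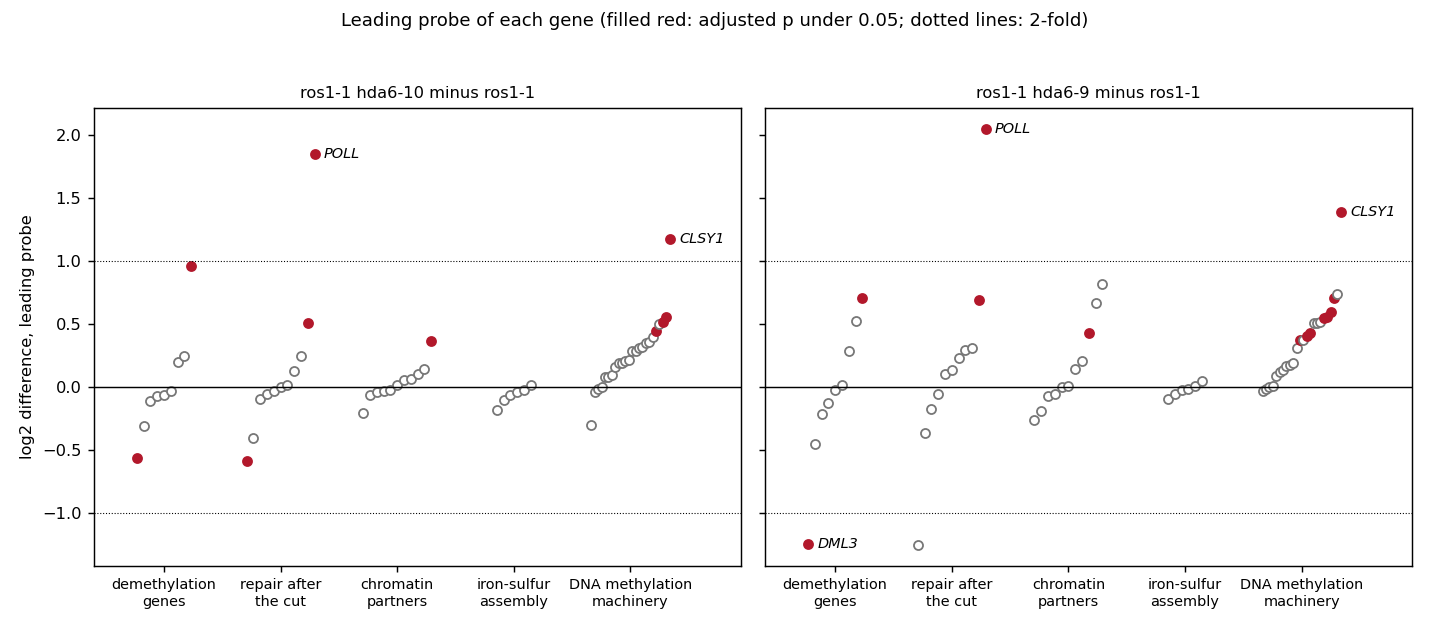
Log2 difference of the leading probe of each gene in *ros1–1 hda6–10* (left) and *ros1–1 hda6–9* (right) against *ros1–1* (y axis), by gene list (x axis; points: genes in ascending order; filled red: adjusted p under 0.05; dotted lines: 2-fold). *POLL* and *CLSY1* lie above 2-fold in both panels. *DML3* lies below it in the right panel alone, as does *APE2*, which did not pass.

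Known targets of ROS1 or DME formed the last list, 7 genes of which 5 were tested. *RMG1* and *FWA* were not well above background on any array. *PHE1*, an imprinted MADS-box gene, read -5.86 and -6.29 in *ros1–1 hda6–10* and -5.72 and -6.04 in *ros1–1 hda6–9*, against -7.38 and -7.37 in *ros1–1* and -7.83 and -7.58 in C24. It was 2.46-fold higher in *hda6–10* (adjusted p = 0.010) and 2.82-fold higher in *hda6–9* (adjusted p = 0.0066) than in *ros1–1*, and against C24 it was 3.10-fold higher in *hda6–10* and 3.54-fold higher in *hda6–9*. With the normexp correction it passed neither in *hda6–10* against *ros1–1* (0.73, adjusted p = 0.065) nor in *hda6–9* against *ros1–1* (0.38, adjusted p = 0.29) or C24 (0.57, adjusted p = 0.13). With the slide as a block it did not pass against *ros1–1* in *hda6–10* (adjusted p = 0.084) or in *hda6–9* (1.64, adjusted p = 0.11). Without *hda6–9* replicate 2 and C24 replicate 2, *hda6–10* against C24 was 1.75 (adjusted p = 0.052), and without *ros1–1* replicate 1 (1.29, adjusted p = 0.062) or *ros1–1* replicate 2 (1.3, adjusted p = 0.052) it did not pass in *hda6–10*.

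*DOGL4*, a ROS1 target known from seeds, was highest in C24. It read -6.90 and -8.02 in *ros1–1 hda6–10*, -4.71 and -4.78 in *ros1–1 hda6–9*, -6.35 and -8.64 in *ros1–1* and -3.71 and -2.89 in C24, and was well above background on every array but 1 of *ros1–1*. All 6 arrays with *ros1–1* in the background lay below both C24 arrays. The difference passed in *ros1–1 hda6–10* against C24 (log2 difference -4.16, interval -6.10 to -2.21, adjusted p = 0.033). *ros1–1* against C24 was -4.19 (interval -6.14 to -2.25) and did not pass (adjusted p = 0.13). With the normexp correction *hda6–10* against C24 was -1.52 (adjusted p = 0.040) and *ros1–1* against C24 -1.96 (adjusted p = 0.17). Without C24 replicate 2, *hda6–10* against C24 was -3.75 (adjusted p = 0.15; 0.23 without *hda6–9* replicate 2 too), and no call was made either without *hda6–10* replicate 1 (-4.72, adjusted p = 0.087), *hda6–10* replicate 2 (-3.60, adjusted p = 0.12), C24 replicate 1 (-4.57, adjusted p = 0.096) or either *hda6–9* array (-4.16, adjusted p = 0.063).

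*FIS2* and *MEA*, Polycomb genes that DME opens in the central cell, were near background. *FIS2* was well above background in *ros1–1 hda6–9* alone, at -6.95 and -7.26, so folds are lower bounds, set on each of the other arrays against its dimmest spot that still stood well above background, or against the probe's own signal where that was higher. It was at least 3.05-fold higher in *hda6–9* than in *ros1–1* (adjusted p = 0.00089), at least 2.37-fold lower in *hda6–10* than in *hda6–9* (adjusted p = 0.015) and at least 2.90-fold higher in *hda6–9* than in C24 (adjusted p = 0.012). These p-values, and that of *MEA* below, come from limma's fit of the measured signals, dim ones included, and not from the bounds. *FIS2* was tested only because it was well above background in *hda6–9*, so these tests are not independent of that filter. With the normexp correction none of these passed (0.19, 0.41 and 0.33 on the log2 scale). Between *hda6–10* and C24, where no array was well above background, no fold of *FIS2* is given, although the fit called it lower in *hda6–10* (adjusted p = 0.031). The difference between the alleles did not pass without any single array of either (adjusted p = 0.051 to 0.097), nor did *hda6–9* against C24 without *hda6–9* replicate 1 (adjusted p = 0.063). *MEA* read -10.55 and -7.98 in *ros1–1 hda6–10*, -10.78 and -10.05 in *ros1–1 hda6–9*, -7.62 and -7.97 in *ros1–1* and -6.11 and -6.28 in C24. *MEA* was tested only because it was well above background in *ros1–1* and C24, so its test is not independent of that filter either. It was at least 4.30-fold lower in *hda6–9*, where neither array was well above background, than in C24 (adjusted p = 0.026), a call that was lost with normexp (-0.69, adjusted p = 0.11) and without any single array of either genotype (adjusted p = 0.083 to 0.13; 0.17 without replicate 2 of both). *EPF2*, which encodes a peptide that restrains the formation of stomata, read -3.42 and -3.79 in *ros1–1 hda6–10*, -2.73 and -2.63 in *ros1–1 hda6–9*, -3.54 and -3.63 in *ros1–1* and -3.65 and -3.26 in C24. Its difference, given after its values were seen, was in *hda6–9* 0.90 from *ros1–1* (adjusted p = 0.029) and 0.78 from C24 (adjusted p = 0.042), under 2-fold.

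**Figure D4:**
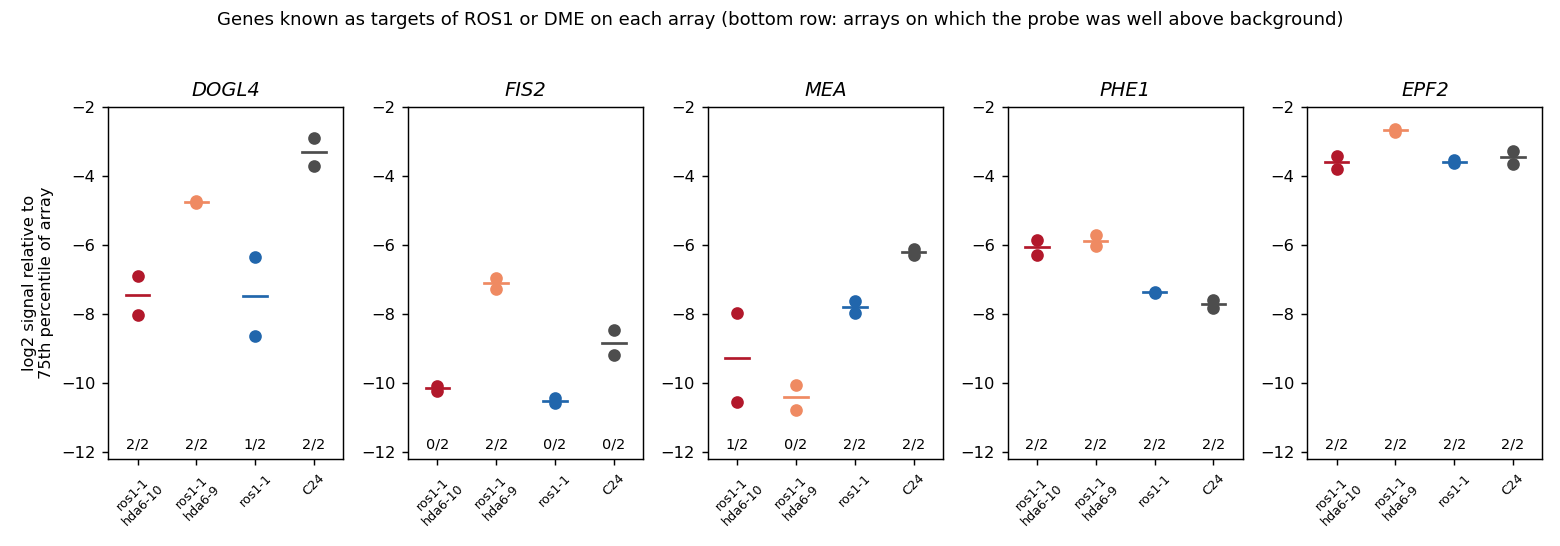
Signal of 5 known targets of ROS1 or DME on each array (y axis: log2 signal relative to the 75th percentile of the array; x axis: genotype; points: arrays; line: mean; bottom row: on how many of 2 arrays the probe was well above background). *DOGL4* is highest in C24, *PHE1* is higher in both *hda6* genotypes than in *ros1–1* and C24, and *FIS2* is well above background in *ros1–1 hda6–9* alone.

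The genes whose leading probe followed that of *ROS1* most closely over the 8 arrays, among 19925 annotated genes well above background throughout, were AT5G05190 (Pearson's r = 0.993), AT3G51940 (0.988), AT5G39250 (0.988), *IAA18* (0.987) and *ADF2* (0.987). Their genotype means spanned 0.14 to 0.57. For *DML3*, the member with the widest span of means, the closest were *A/N-InvA* (0.992), *LPR1* (0.990), AT3G18560 (0.986), AT1G49840 (0.985) and *SEP1* (0.980). *SEP1*, a floral MADS-box gene, averaged -5.70 in *ros1–1 hda6–9*, against -3.51 in *ros1–1 hda6–10*, -3.65 in *ros1–1* and -4.16 in C24. These are descriptions over 4 genotypes of 2 arrays, chosen as the highest of many.

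The marker lists gave little beyond this. *RBCS1A* and *LHCB1.3*, genes of green tissue, read 7.15 to 7.91 on all arrays. With *LHCB2.1* as the third, the leaf genes differed from *ros1–1* by 0.05 to 0.33 in *hda6–10* and by -0.01 to 0.72 in *hda6–9*. Between the alleles their differences ran from -0.67 to 0.34. None of the 3 leaf genes passed in any comparison. Neither did the 2 root, 3 seed and 3 flower genes, and the flower genes *AG* and *AP3* were dim on part of the arrays. Of 3 cold response genes, *RD29A* and *COR15A* were higher in *hda6–10* than in *ros1–1* (log2 differences 5.74, adjusted p = 0.0098, and 1.44, adjusted p = 0.033). *KIN1* did not pass there (0.62, interval 0.08 to 1.15, adjusted p = 0.14). In *hda6–9* against *ros1–1*, *COR15A* gave 1.13 (adjusted p = 0.065). Against C24 it was higher in *hda6–10* (1.96, adjusted p = 0.017) and in *hda6–9* (1.64, adjusted p = 0.023). The other cold genes did not follow in *hda6–9*. There *RD29A* differed by 1.54 from *ros1–1* (adjusted p = 0.25) and by -1.33 from C24 (adjusted p = 0.30). Its second, dim probe, at -10.38 in *hda6–9*, was lower than in C24 (-2.51, adjusted p = 0.044). *KIN1* in *hda6–9* gave 0.18 against *ros1–1* and 0.16 against C24, neither past the threshold.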

How the data were processed

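Expression was measured in 8 seedling RNAs, 2 per genotype, on one-colour Agilent arrays. The authors extracted the spots with Agilent Feature Extraction 10.7.1.1, with background subtraction, spatial detrending and outlier marks. They deposited linear intensity values: the scanner output per array, and a combined matrix that equals its background-subtracted signal to within 2.87 intensity units, before any shift.

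From log2 processed signals, each array's 75th percentile was subtracted. Outlier spots (25 to 49 per array) were left out and spots of a probe averaged. Tested were the 35381 of 43603 probes well above background on both arrays of a genotype. No spot was saturated, and 77.2% to 80.6% of spots were well above background. The number of arrays limits the precision. A linear model with 4 genotype means was fitted in limma 3.58.1 (R 4.3.3; lmFit, eBayes), and tested on simulated data. A probe was called at an adjusted p under 0.05 and over 2-fold, and calls by adjusted p alone are given beside these. Probes were joined by RefSeq accession to the TAIR10.1 annotation (34285 probes), for names and chromosomes only, as the array design rests on another build.

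Members and lists (repair, chromatin partners, iron-sulfur assembly, DNA methylation, targets, tissue, cell division and cold markers) were chosen with earlier results of these data known. Named were all members, genes of a list called in any comparison (at most 4 per list), and the 5 genes most like *ROS1* and the widest-ranging member. Where neither array of a genotype measured a probe above background, its fold is a lower bound. Alternatives covered background correction, scaling, filters, outliers, arrays fitted, slide, replicate number and each array left out, where a lone array was assumed to vary like the other genotypes. The fit without *hda6–9* replicate 2 and C24 replicate 2 and the within-slide values were added after seeing the data.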

Additional observations from a re-analysis of the deposited data

Results flagged for a closer look

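For 3 transcripts, the change against *ros1–1* differed between the 2 *hda6* alleles by a direct test. As both changes are measured from the same *ros1–1* arrays, the difference equals that between the alleles themselves. For *DML3* it was 1.21 on the log2 scale, higher in *hda6–10* than in *hda6–9* (limma, adjusted p = 0.015), and for the second probe of *IDM3* it was 0.60 (adjusted p = 0.046), higher in *hda6–10* as well. The leading probe of *IDM3* gave 0.68 and did not pass (adjusted p = 0.064). *FIS2* was not well above background in *hda6–10*, so its difference is given only as a bound, at least 2.37-fold lower in *hda6–10* than in *hda6–9* (adjusted p = 0.015), and with normexp it turned sign and did not pass (0.41). That p-value comes from the fit of the measured signals and not from the bound. *FIS2* was tested only through its signal in *hda6–9*, so the test is not independent of that filter.

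The alleles lay on different slides: both *hda6–10* arrays shared a slide with *ros1–1* replicate 1, and *hda6–9* replicate 1 shared one with *ros1–1* replicate 2. Within these slides, *hda6–10* minus *ros1–1* was 0.05 for *DML3* and 1.06 for the second probe of *IDM3*, and *hda6–9* minus *ros1–1* was -1.26 and 0.21. With the slide as a fixed block none of the 3 differences between the alleles passed (*DML3* 1.31, adjusted p = 0.21; *IDM3* 0.85, adjusted p = 0.30; *FIS2* adjusted p = 0.24).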

How the results depend on the processing

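No member was called in *ros1–1* against C24 under any alternative. In *hda6–10* against *ros1–1* the count of called probes was 0, and became 2 with the slide as a fixed block (both of *IDM3*) and 0 to 2 with single arrays left out (1 without *hda6–10* replicate 2, 2 without *ros1–1* replicate 2). In *hda6–9* against *ros1–1* and against C24 the count of 1 became 0 with normexp, and against C24 also 0 without *hda6–9* replicate 2 and C24 replicate 2. Between the alleles the count of 1 became 0 with normexp, with only the 4 arrays compared, with the slide as a fixed block, with the replicate number as a block and without those 2 arrays, and was 0 to 1 with single arrays left out (0 without *hda6–10* replicate 1, *hda6–9* replicate 1 or *hda6–9* replicate 2). With no minimum fold the counts were 3, 3, 2, 4 and 4 in *hda6–10* and *hda6–9* against *ros1–1*, between the alleles, and in *hda6–10* and *hda6–9* against C24. *FIS2* reversed with normexp between the alleles (0.41) and in *hda6–10* against C24 (0.74), neither passing. The cause of these changes was not tested. Among single genes, 1920 values stayed on their side of the threshold, 144 lost it, 22 gained it and 2 reversed, where a sign that turned with neither value past the threshold was not counted.

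Same-numbered arrays did not deviate together (6 correlations of deviations, -0.375 to 0.063), so a shared number does not mark a pair. With 2 arrays per genotype, a negative value means that arrays of opposite number deviated together in part. The lowest, -0.375, was between *hda6–9* and *ros1–1*, of which replicate 1 and replicate 2 shared a slide. The next, -0.298, was between *hda6–10* and C24, which shared none. With the replicate number as a block, *ROS1* in *hda6–10* against *ros1–1* was -0.56 (adjusted p = 0.089) and *DML3* between the alleles was 1.21 (adjusted p = 0.052). With normexp the median of all probes was 0.11 in *hda6–10* against *ros1–1* and 0.13 against C24. With quantile normalization 1460 probes were higher and 770 lower in *hda6–10* against *ros1–1*, beside 1773 and 479. Normexp used the median spot signal, since no mean signal was given. The slide could not be fitted as a fixed block in comparisons with C24.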
